A study of Mus musculus with 2 samples.

Results

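The haem synthesis enzymes described here are the products of 8 genes, Alas1, Alas2, Alad, Uros, Urod, Cpox, Ppox and Fech. They were chosen by name, as enzymes of the pathway, and all 8 were found among the 43346 genes of both gene tables. The tables come from total RNA of whole stomachs, in a single group of B6NCrl mouse embryos at day 15.5. Replicate 1 was a pool of 78 embryos and replicate 2 a pool of 62, each with males and females in proportions that the labels leave out. They name no transgene, deletion or treatment. Values are given for each library, with the mean and SD over both (n = 2), in TPM (a level scaled to transcript length and to the library's total, which can be compared between genes).

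Haem, the iron-bearing ring of haemoglobin and of the cytochromes, is built in a pathway that starts in the mitochondrion, passes through the cytosol and ends in the mitochondrion with the insertion of iron. The first step is catalysed by a pair of isoenzymes: Alas1 is made in nearly every cell, and Alas2 is the erythroid form. In developing red cells the transcription factors GATA1 and KLF1 act on genes of the pathway, and the translation of Alas2 is held back by iron regulatory proteins when iron is short. An organ that contains blood therefore holds RNA of the pathway from red cells as well as from its own cells.

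The element through which iron regulatory proteins bind Alas2 RNA is shown first, because it marks the erythroid gene and lies in both of its coding transcripts. It was found at chrX:150547459-150547483 (GRCm38, plus strand), in the 5' untranslated part of the first exon. The capitals mark the loop, and the flanking letters include the bulged C and the stem.
Alas2 iron-responsive element: tggttcgtcctCAGTGCagggcaac
It covers bases 85 to 109 of transcript Alas2-201 and bases 1 to 25 of Alas2-202. A search for the same form (a C, 5 bases, CAGTGN and 5 bases that pair with the first 5, with G-U pairs allowed) in the first 200 bases found it in 49 of 58616 annotated coding transcripts of at least 200 bases (0.0836%). A match describes the letters only.

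Sequence before the transcription starts was taken from RefSeq (GRCm38.p6, the same assembly as mm10), as 9 windows of 250 bases for 7 of the 8 genes. Fech was not among them. The letters of the GATA motif (AGATAA or its variant AGATAG, and likewise TGATAA or the variant TGATAG, on either strand) stood in 2 of the 9 windows, those of Alas2 and Cpox. Of 32851 windows of the same length over all genes, 26.5% held the motif. The window of Cpox held 2 matches, and 6.40% of all windows held at least 2. These stretches are shown because they hold those matches, and capitals mark the GATA letters, which read on the strand opposite to the printed one.
Alas2, chrX:150547167-150547374, plus strand: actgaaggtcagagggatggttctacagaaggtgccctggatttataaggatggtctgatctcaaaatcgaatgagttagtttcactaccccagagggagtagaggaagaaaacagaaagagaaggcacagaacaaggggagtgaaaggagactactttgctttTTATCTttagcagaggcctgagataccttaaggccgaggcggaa
Cpox, chr16:58669958-58670207, plus strand: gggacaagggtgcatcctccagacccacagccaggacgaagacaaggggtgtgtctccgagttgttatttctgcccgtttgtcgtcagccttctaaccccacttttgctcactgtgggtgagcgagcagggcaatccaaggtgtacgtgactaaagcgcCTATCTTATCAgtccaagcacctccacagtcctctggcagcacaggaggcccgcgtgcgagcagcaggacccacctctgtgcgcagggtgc
In Alas2 the match lies from -86 to -81 bases before the RefSeq start, and the last 42 bases of its window, which are annotated as exon, are not printed. In Cpox the matches lie from -91 to -86 and from -86 to -81 and share 1 base. The letters CCNCNCCC, a form bound by KLF factors, were searched on either strand with overlaps allowed. They stood in 6 of the 9 windows (both of Alas1, both of Alad, Alas2 and Uros) against 45.9% of all windows. The windows of Alad overlap: the matches from -58 to -49 before start 1 are those from -212 to -203 before start 2. All matches of Alas2, from -42 to -19, lie in the 42 bases annotated as exon. Neither motif was found in the windows of Urod and Ppox, which says only that these letters are not in those stretches.

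**Figure D1:**
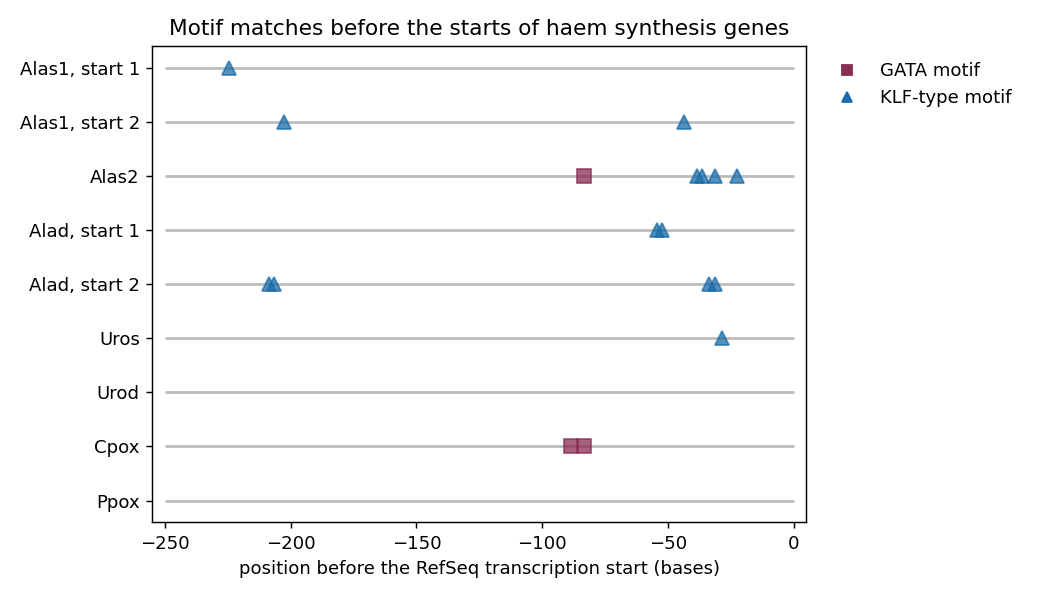
Positions of GATA letters (squares) and CCNCNCCC letters (triangles) in the 250 bases before 9 RefSeq transcription starts of 7 haem synthesis genes, in bases before the start. GATA letters appear in 2 of 9 windows and CCNCNCCC in 6, and the overlapping windows of Alad share matches.

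The gene tables summed to 43209506 expected counts in replicate 1 and 44257493 in replicate 2, and the 8 genes drew between 1263 and 6456 counts each. Library sizes were scaled with TMM factors (trimmed means of the ratios between libraries), which left the median log2 ratio of all 20918 tested genes at -0.0031. Markers of other cell types were present: 16 of 16 red cell markers, 14 of 14 hepatocyte markers and 10 of 10 exocrine pancreas markers were detected (1 TPM or more in both libraries), as were 14 of 14 stomach markers. None of these markers was at 0 in both tables.

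All 8 genes were detected in both pools, and their levels lay within a narrow range. The median of the 8 was 65.8 TPM in replicate 1 and 53.0 in replicate 2, where the median of detected protein-coding genes was 17.5 and 17.9. The highest member stood 3.57 times above the lowest in replicate 1 and 3.45 times in replicate 2. By mean TPM the order ran Alad, Alas2, Urod, Fech, Alas1, Cpox, Ppox and Uros. Alad exceeded Alas2 by 24.2 ± 16.2 TPM (SD of the difference, n = 2), Urod exceeded Fech by 10.3 ± 7.08 and Ppox exceeded Uros by 9.85 ± 0.0778. The other neighbours did not differ beyond their spread: the order of Alas2 and Urod, of Fech and Alas1, and of Alas1 and Cpox turned around between the pools, and Cpox exceeded Ppox by 8.20 ± 8.82 TPM.

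**Figure D2:**
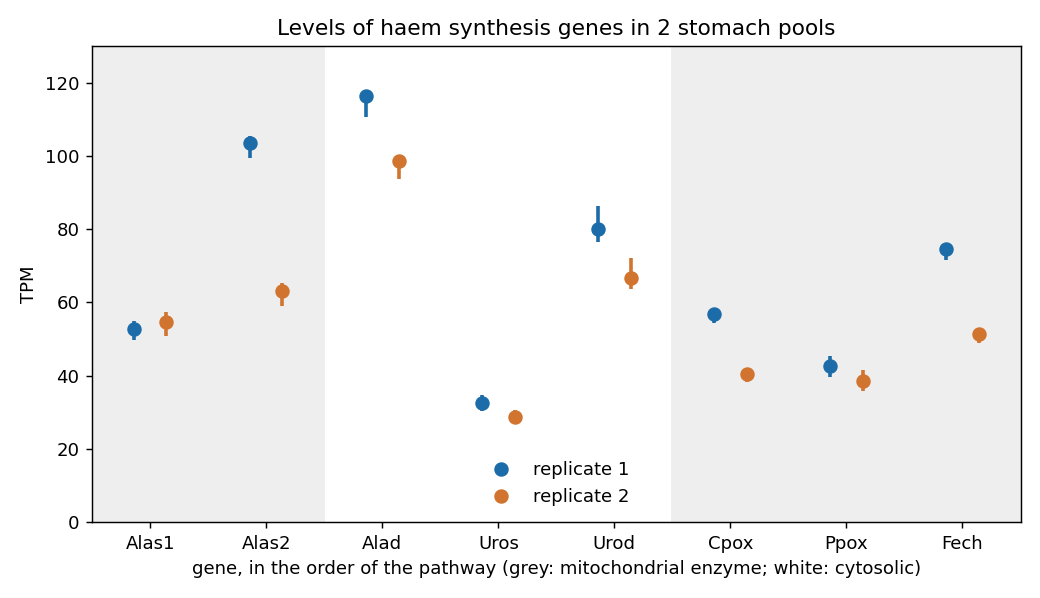
TPM of the 8 genes in both stomach pools, in the order of the pathway, with the mitochondrial enzymes on grey and the cytosolic ones on white. Bars are the lower and upper TPM bounds deposited with each estimate, whose level is not stated; the points of Alas1 nearly coincide, and those of Alas2 lie farthest apart.

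Alas1 (ENSMUSG00000032786.16, chr9:106233455-106248654, minus strand), the housekeeping isoenzyme of the first step, stood at 52.7 TPM in replicate 1 and 54.6 in replicate 2 (53.6 ± 1.36). The values lay close together, and the gene ranked at the 78.9th percentile of the 13846 detected protein-coding genes. Its counts of 3081 and 3156 gave a log2 ratio of replicate 2 to replicate 1 of -0.01, with a 95% interval from -0.080 to 0.065 (exact binomial test on both counts, Benjamini-Hochberg adjusted p = 0.920). These intervals cover counting error only, and each test compares the reads of these 2 libraries, not 2 conditions, with no replicate check within a pool.

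Alas2 (ENSMUSG00000025270.13, chrX:150547375-150570638, plus strand), the erythroid isoenzyme, stood at 103.6 TPM in replicate 1 and 63.0 in replicate 2 (83.3 ± 28.7, 86.6th percentile). Replicate 1 was the higher pool, and the spread of Alas2 was the widest of the 8 genes. Its counts of 5908 and 3493 gave a log2 ratio of -0.80 (interval from -0.86 to -0.74, adjusted p = 5.99e-152 by the exact binomial test), or 0.574 times the level of replicate 1. A lower log2 ratio than that of Alas2 was seen in 9.61% of all genes tested, many of which had fewer counts. Of 8289 genes with 1000 or more counts in each library, 1.23% were lower by adjusted p and a log2 limit of 0.5. With a common dispersion estimated from the same 2 libraries, edgeR's exact test gave Alas2 an adjusted p of 0.736. That dispersion contains the differences being tested, so edgeR's values here are no independent check. In a whole organ, fewer red cells and less RNA per red cell cannot be told apart.

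Set against Alas1, Alas2 was 1.97 times as high in replicate 1 and 1.15 times in replicate 2. It took 66.3% and 53.6% of the summed TPM of both isoenzymes (59.9 ± 8.99), and that sum was 156.3 TPM in replicate 1 and 117.6 in replicate 2. The log2 ratio of Alas2 to Alas1 was 0.98 and 0.21 (0.59 ± 0.54). The erythroid gene was thus above the housekeeping gene in both pools, by a margin that varied nearly as much as its mean. Against the 4 adult-type globins, which summed to 40859 and 22908 TPM, Alas2 came to 2.54 and 2.75 TPM per 1000 TPM of globin.

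The cytosolic enzymes had a median of 79.9 TPM in replicate 1 and 66.6 in replicate 2. Alad (ENSMUSG00000028393.10, chr4:62509169-62519918, minus strand), which joins 2 molecules of aminolevulinic acid into porphobilinogen, was the highest of the 8 by mean, at 116.3 and 98.7 TPM (107.5 ± 12.5, 89.8th percentile). Its log2 ratio was -0.27 (interval from -0.34 to -0.21, adjusted p = 8.56e-15 by the exact binomial test). Uros (ENSMUSG00000030979.13, chr7:133686243-133710072, minus strand), which closes the porphyrin ring, was the lowest at 32.6 and 28.6 TPM (30.6 ± 2.81, 65.5th percentile), with a log2 ratio of -0.22 (from -0.33 to -0.11, adjusted p = 0.00044, same test). Urod (ENSMUSG00000028684.14, chr4:116989965-116994413, minus strand), which removes carboxyl groups from the ring's side chains, stood at 79.9 and 66.6 TPM (73.3 ± 9.40, 84.6th percentile), with a log2 ratio of -0.24 (from -0.32 to -0.16, adjusted p = 2.08e-08, same test). These cytosolic genes were lower in replicate 2 by similar amounts, and their 3 intervals overlap.

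The late mitochondrial enzymes differed more among themselves. Cpox (ENSMUSG00000022742.6, chr16:58670292-58717636, plus strand), which oxidises coproporphyrinogen, stood at 57.0 and 40.4 TPM (48.7 ± 11.7, 76.6th percentile). Its counts of 5428 and 3866 gave a log2 ratio of -0.53 (from -0.59 to -0.47, adjusted p = 1.06e-67 by the exact binomial test). Ppox (ENSMUSG00000062729.11, chr1:171275990-171281186, minus strand), which oxidises protoporphyrinogen in the step after Cpox, stood at 42.5 and 38.4 TPM (40.5 ± 2.89, 72.5th percentile), with a log2 ratio of -0.08 (from -0.16 to -0.0054, adjusted p = 0.0942, same test). Fech (ENSMUSG00000024588.9, chr18:64452914-64490251, minus strand), which inserts iron into protoporphyrin, stood at 74.6 and 51.3 TPM (63.0 ± 16.5, 82.0th percentile). Its counts of 6456 and 4460 gave a log2 ratio of -0.58 (from -0.63 to -0.52, adjusted p = 6.92e-93, same test). Cpox and Fech lay next to each other, with overlapping intervals, between the cytosolic genes and Alas2, and the interval of Ppox overlapped that of Alas1.

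By the rule for a called gene, an adjusted p under 0.05 and a log2 ratio of at least 1 in size, 0 of the 8 genes were called, where 6.73% of all genes tested were (5.92% lower and 0.808% higher in replicate 2). By adjusted p alone, 6 of the 8 were lower and 0 higher in replicate 2, beside 16.8% lower and 15.2% higher of all genes (32% in either direction). With a log2 limit of 0.5 in place of 1, Alas2, Cpox and Fech were called lower and 0 genes higher, beside 8.08% of all genes lower and 2.02% higher. Since genes with many counts reach a small p more easily, the share was also taken among the 8289 that had 1000 or more counts in both libraries, where 1.23% were lower by that limit and 16.5% by adjusted p alone. All 8 ratios were below 0, except that the ratio of Alas1 was 0.00012 with plain library totals, and their median was -0.26. By edgeR's exact test with the dispersion of both pools (a biological coefficient of variation of 19.8%), 0 of the 8 were called, and 3.06% of all genes were called lower by it. By this test 0 of the 8 had an unadjusted p under 0.05, and the lowest was 0.0508, that of Alas2.

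**Figure D3:**
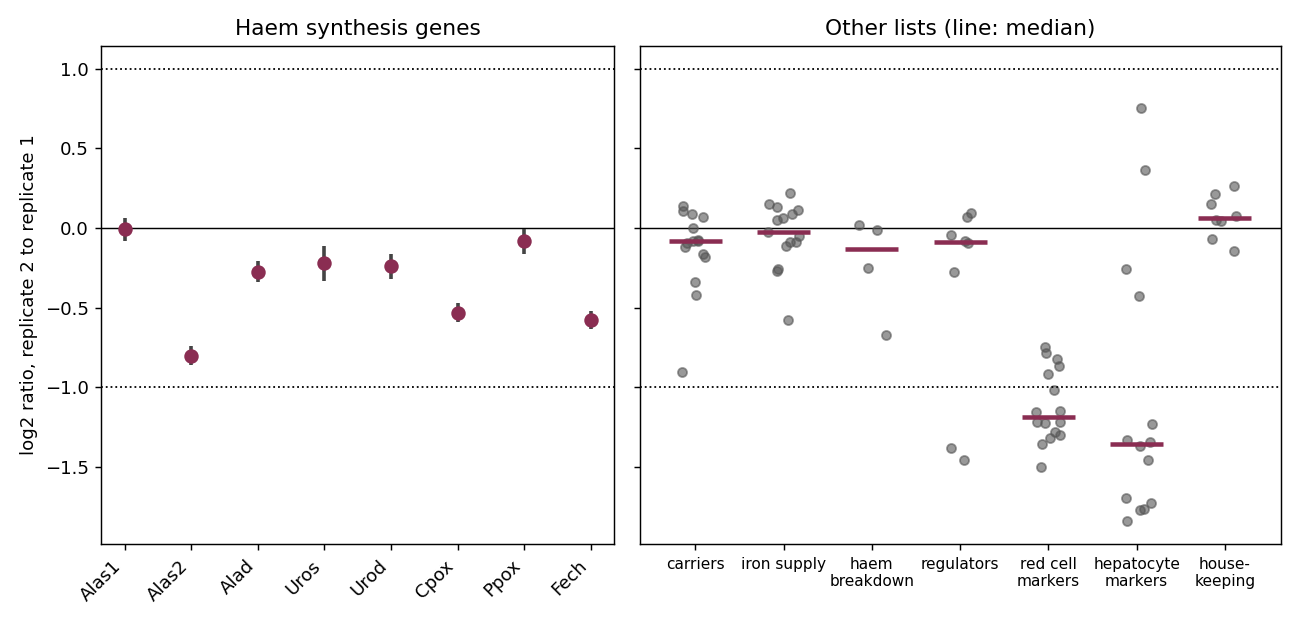
Log2 ratio of replicate 2 to replicate 1 for the 8 genes (left, bars are 95% binomial intervals of counting error) and for the members of other lists (right, points are genes and lines are medians). Dotted lines mark a log2 ratio of 1 in either direction; Alas2 has the lowest ratio on the left, and the red cell and hepatocyte lists have medians of -1.18 and -1.35.

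Markers of red cells and of other tissues were compared between the pools in the same way. All 16 red cell markers were lower in replicate 2 by adjusted p alone (exact binomial test) and 11 of 16 were called lower. Of all genes tested, 16.8% were lower by adjusted p alone and 5.92% were called lower. The red cell markers had a median log2 ratio of -1.18, and their summed level was 41101 TPM in replicate 1 and 23016 in replicate 2. The adult-type globins Hba-a1, Hba-a2, Hbb-bs and Hbb-bt had log2 ratios of -1.02, -0.87, -0.78 and -0.82. Those of Hba-a2, Hbb-bs and Hbb-bt lay close to the -0.80 of Alas2. The red cell list as a whole did not: its median of -1.18 was lower than the ratio of Alas2. All 11 markers called lower also had lower ratios than Alas2. Among these, Slc4a1, the anion exchanger of the red cell membrane, had -1.15. Of the 16, edgeR's exact test called Kel and Trim10, beside 3.06% of all genes called lower by it. Of 14 hepatocyte markers, 10 were called lower and the list summed to 2429 and 1221 TPM. By adjusted p alone 12 were lower and 2 were higher, Cps1 (log2 ratio 0.75) and Apob (0.36, below 0 with spike-in totals as library sizes, which move all log2 ratios by -0.68), which are named after their values were seen. Exocrine pancreas markers summed to 8913 and 12150 TPM with 0 of 10 called. By adjusted p alone 9 of them were higher and 1 lower, beside 15.2% of all genes higher, and their median log2 ratio was 0.48. Stomach markers summed to 3829 and 2810 TPM with 2 of 14 called lower, the squamous keratins Krt4 and Krt13. By adjusted p alone 8 of them were lower and 4 higher, with a median log2 ratio of -0.37. Of 8 housekeeping genes 0 were called, and by adjusted p alone 2 were lower and 5 higher. Their median log2 ratio was 0.06. The part of any of these tissues in the levels of the haem synthesis genes was not tested.

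Among 42 other genes of haem and iron metabolism in 4 lists, 2 were called, Klf1 and Gata1, beside 6.73% of all genes tested. Both belong to the list of 8 regulators. Klf1, the erythroid Krüppel-like factor, stood at 32.2 TPM in replicate 1 and 12 in replicate 2 (log2 ratio -1.46, adjusted p = 3.81e-97 by the exact binomial test and 0.0197 by edgeR's). Gata1, the erythroid GATA factor, stood at 7.94 and 3.43 TPM (log2 ratio -1.38, adjusted p = 7.13e-28 and 0.0439). For both factors replicate 1 was the higher pool by more than 2-fold. The highest of this list were Lonp1 at 47.8 and 47.5 TPM, Clpx at 39.1 and 41.0, and Nrf1 at 40.3 and 37.7. The products of Lonp1 and Clpx act on Alas proteins in the mitochondrion, and Nrf1 is a transcription factor of mitochondrial genes.

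Of 15 carriers of porphyrin, haem and mitochondrial substrates 0 were called, beside 6.73% of all genes tested. By adjusted p alone 8 were lower and 1 was higher, beside 16.8% and 15.2% of all genes. The highest were Tmem14c, a mitochondrial porphyrin transporter, at 217.4 and 205.5 TPM, Slc25a39, a mitochondrial glutathione carrier, at 212.9 and 208.6, and Pgrmc1, a haem-binding membrane protein, at 185.9 and 180.2. These were level between the pools to within 0.12 on the log2 scale. Slc25a37 (mitoferrin 1), the mitochondrial iron importer of red cell precursors, stood apart at 43.1 and 23.0 TPM with a log2 ratio of -0.90, and Slc25a28 (mitoferrin 2), its widely made relative, stood at 10.1 and 9.73 with -0.09. This pair was chosen after its values were seen.

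Of 15 genes of iron supply and iron-sulphur assembly 0 were called, beside 6.73% of all genes tested. By adjusted p alone 7 were lower and 4 higher, beside the same 16.8% and 15.2%. The ferritin chains Ftl1, at 3892 and 3931 TPM, and Fth1, at 1740 and 1478, were the highest, followed by Hspa9, a mitochondrial chaperone of cluster assembly, at 199.8 and 216.4. Of the 4 genes of haem breakdown 0 were called, beside the same 6.73%, and 2 were lower and 0 higher by adjusted p alone. Blvrb, a biliverdin reductase abundant in red cells, stood at 102.6 and 66.8 TPM (log2 ratio -0.67, adjusted p = 7.02e-52 by the exact binomial test). Hmox2, the constant haem oxygenase, stood at 70.0 and 72.6, and Blvra, the other biliverdin reductase, at 43.1 and 43.9.

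The transcript tables divide each gene's TPM among annotated transcripts. Of the 8 genes, Cpox and Fech had 1 transcript each, and the others had between 3 and 10. The shares are estimates from reads that can fit several transcripts.

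In Alas2, both coding transcripts begin in the first exon that carries the iron-responsive element. Alas2-201 took 71.6% and 72.5% of the gene's TPM and Alas2-202 24.9% and 19.3%, so that the first exon accounted for 96.5% in replicate 1 and 91.8% in replicate 2. The remainder lay on a transcript with a retained intron (3.51% and 2.68%) and on the noncoding Alas2-204, which was at 0 in replicate 1 and took 5.50% in replicate 2. The coding part of Alas2 came to 99.9 and 57.9 TPM.

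In Alas1, a smaller part of the level was coding. Its coding transcripts took 58.4% and 50.1%, or 30.7 and 27.4 TPM, led by Alas1-201 with 48.2% and 40.8%. A noncoding transcript that begins inside the gene, Alas1-206 (first exon at chr9:106243555-106243634), took 30.8% and 38.3%, or 16.2 and 20.9 TPM. Its deposited TPM bounds were 12.5 to 18.8 in replicate 1 and 17.3 to 23.7 in replicate 2, which overlap.

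Alad is known for a housekeeping and an erythroid first exon, but the 3 annotated transcripts here share an overlapping first exon and could not be divided by start. Alad-201 took 97.6% and 98.6%. For Uros, the 6 transcripts of the main start took 87.6% and 89.6%, and the upstream Uros-208 took 5.97% and 6.02%. Uros-209, which begins downstream, took 5.87% and 4.38%. That share rested on 16.1 and 10.6 expected counts, and its TPM bounds ran from 0.0011 to 2.60 and from 1.2e-05 to 1.82. A difference between the pools in the use of this start was not detectable at this depth.

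Transcripts with retained introns took 43.6% and 45.9% of the TPM of Ppox, 25.6% and 21.8% of Urod and 18.5% and 17.4% of Uros. By expected counts, which are not scaled to length, such transcripts took 53.9% and 57.2% of Ppox, 13.6% and 11.6% of Urod and 27.2% and 25.6% of Uros, so that the order of Urod and Uros turned around. Ppox-201, the leading coding transcript, took 53.5% and 54.1%, Urod-201 70.0% and 74.9%, and Uros-204 36.2% and 32.9%. Over the 8 genes, the median share of the leading transcript was 72.3%, with Cpox and Fech at 100% by annotation, since each has 1 transcript.

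**Figure D4:**
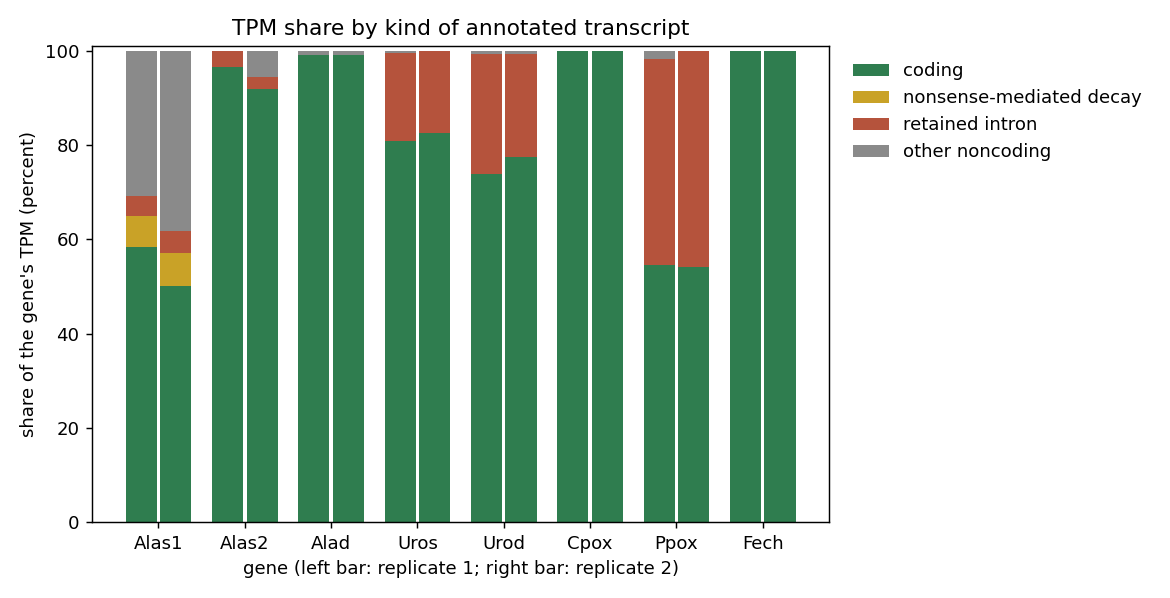
Share of each gene's TPM, in percent, by kind of annotated transcript, with replicate 1 as the left and replicate 2 as the right bar of each pair. Cpox and Fech have 1 annotated transcript each, a coding one, so their bars are coding by annotation. Ppox has 43.6% and 45.9% on retained introns, and Alas1 has 30.8% and 38.3% on a noncoding transcript.

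Annotated neighbours overlap 5 of the 8 genes on the opposite strand, and without a stated strand setting their reads cannot be told apart from those of the members. Alas2 lies wholly within the bounds of Apex2, a DNA repair gene at 12.2 and 15.3 TPM. Uros shares 740 bases with Bccip (129.0 and 133.2 TPM), and Ppox shares 907 bases with B4galt3 (54.9 and 53.9 TPM). Alas1 overlaps 4930500F10Rik, at 0.29 and 0.37 TPM, and Cpox overlaps Gpr15, at 0.08 in both pools. Counts were whole numbers, to within 0.005, in both libraries for 5 of the 8 genes, and not for Alas1, Alas2 and Ppox.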

How the data were processed

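Total RNA of 2 pools of whole embryonic stomachs was sequenced, from 10 ng of input and RNA above 200 nucleotides with ERCC spike-ins, per the labels. The text deposited with the tables names mm10 and annotation M4. Aligner, quantification program and strand are not given in the sources used here. Per the file headers, the authors deposited an expected count, TPM, FPKM and TPM bounds for each feature, and, for each transcript, its share of the gene in percent. TPM was scaled by the authors over all features with spike-ins, which took 4.01% of TPM in replicate 1 and 6.51% in replicate 2. An expected count can be a fraction, because the authors' quantification divided reads between features. The deposited tables give no molecular identifiers, so PCR copies are not independent.

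Symbols, transcripts and coordinates came from GENCODE M21 (mm10). Spike-ins were left out of library sizes. Counts were rounded, and TMM factors (edgeR 4.0.16, R 4.3.3) were taken over 20918 genes that reached 10 counts over both libraries. Each gene's 2 counts were set against each other in an exact binomial test, two-sided (SciPy 1.17.1), with Benjamini-Hochberg adjustment over all of them, at an adjusted p under 0.05 and a log2 ratio of at least 1 in size, with a prior count of 0.5. The procedure was checked on simulated counts that vary by counting error only, so the check does not cover variation between pools. Alternatives were DESeq2 1.42.0 size factors, library totals, spike-in totals, other count minimums and fold limits, edgeR's exact test with the common dispersion of both libraries, other units and detection limits, and each library left out. Of each other list, the 3 highest genes, those called, those below 1 TPM and every globin were eligible to be named, and a gene named outside this rule is said to be. The members and lists were chosen with earlier results of these data known, and the share among genes of 1000 or more counts was added later. Some items are not reported here. Labels do not say whether the pools came from separate litters or days.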

Additional observations from a re-analysis of the deposited data

How the results depend on the processing

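All 8 genes stayed detected under each alternative run, each library left out included. Calls depended on the fold limit and on spike-in scaling, which moved all log2 ratios by -0.68. Of the 8 genes, 3 were called with spike-in totals as library sizes, 6 with no minimum fold and 3 with a log2 limit of 0.5, against 0. With spike-in totals 16.5% of all genes tested were called lower and 0.268% higher. With no minimum fold these shares were 16.8% and 15.2%, and with a log2 limit of 0.5 they were 8.08% and 2.02%. Of the 42 other pathway genes, 7, 26 (21 lower, 5 higher) and 5 were called, against 2. The median log2 ratio of -0.26 became -0.94 with spike-in totals, and the mean over the 8 genes was -0.34. The median share of the leading transcript, 72.3%, was 70.5% by posterior-mean TPM and 81.6% by expected counts, and 70.8% to 73.7% with a library left out. The log2 ratio of Alas2 to Alas1 ranged from 0.21 to 0.98 with a library left out.

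With plain library totals the log2 ratio of Alas1 was 0.00012. With spike-in totals ratios above 0 turned to -0.59 for Hspa9, -0.66 for Hmox2, -0.61 for Clpx, -0.40 for Ctrb1, -0.19 for Pnliprp1, -0.17 for Amy2a2, -0.67 for Actg2, -0.42 for Gapdh, -0.53 for Ppia, -0.63 for Cyc1 and -0.68 for Sdhd. Spike-ins took 1.88% of counts in replicate 1 and 2.999% in replicate 2, and the cause was not tested. With edgeR's exact test, 11 genes of the red cell, hepatocyte and stomach lists were no longer called. Leaving out a library leaves no comparison between pools. No paired analysis was possible because the series holds a single group. Transcript shares on few counts, such as those of Uros-209, are limited by depth.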

Other observations

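Haem proteins other than haemoglobin were looked at in a list chosen after the data were seen: Cycs, Cyc1, Sdhc, Sdhd, Cat, Cyb5a, Cyb5b, Cygb, Mb, Suox and Cbs. Of these 11 genes, 10 were detected, and 0 were called different between the pools, beside 6.73% of all genes tested. By adjusted p alone (exact binomial test, Benjamini-Hochberg), 2 were lower and 5 higher in replicate 2, beside 16.8% lower and 15.2% higher of all genes tested, with a median log2 ratio of 0.04. The highest were Cyb5a, a cytochrome b5, at 385.6 TPM in replicate 1 and 355.7 in replicate 2, Cyc1, the cytochrome c1 of the respiratory chain, at 343.8 and 364.2, and Sdhd, a membrane subunit of succinate dehydrogenase, at 286.2 and 293.8. Cbs, a haem-dependent enzyme of cysteine synthesis, stood at 20.0 and 30.3 TPM with a log2 ratio of 0.57, and is named after its value was seen. Mb, the muscle globin, was below the detection limit at 0.95 and 0.92 TPM.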
